A study of Homo sapiens with 12 samples.

Results

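The 8 genes described here encode the enzymes of alkylated base repair: the glycosylase MPG, the methyltransferase MGMT, the dioxygenases ALKBH1, ALKBH2 and ALKBH3, and the ASCC complex subunits ASCC1, ASCC2 and ASCC3. They were chosen by name, and all 8 were found among the 60709 genes of the deposited tables. Each is also among the 13422 protein-coding genes that were tested, MGMT only because of its level in HL-60 cells. RNA was sequenced from a pair of human acute myeloid leukemia (AML) cell lines after 36 h with Duocarmycin SA (DSA), which bonds covalently to adenine from the minor groove of DNA, with 2 libraries in each of 6 groups. HL-60 cells, which resemble promyelocytes, were left without DSA (control) or received 112.7 pM (low) or 500 pM (high) DSA in IMDM. Molm-14 cells, which carry an MLL fusion and an internal tandem duplication of FLT3, were left without DSA or received 11.1 pM (low) or 100 pM (high) DSA in RPMI with a lower share of serum. The labels call the controls untreated, whereas the methods name a vehicle, and neither says that the replicates were separate cultures, so p-values measure the spread between these libraries, which may be technical. Line, medium and serum cannot be told apart in any comparison of the lines, and each line is 1 line, not a sample of its type of leukemia.

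Cells remove alkyl groups from DNA by several routes. MPG cuts a damaged base from the sugar, which opens base excision repair. MGMT transfers the alkyl group from guanine to itself and is then degraded. ALKBH2 and ALKBH3 oxidize the methyl group away with iron and 2-oxoglutarate, and ALKBH3 acts mainly on single-stranded DNA, which the helicase ASCC3 supplies by unwinding the duplex. ASCC2 binds ubiquitin chains and brings the complex to sites of damage, and ASCC1 is its accessory subunit. ALKBH1 is a relative that acts on tRNA and other nucleic acids. ASCC2 and ASCC3 also serve in the rescue of collided ribosomes.

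The libraries held 21168248 to 63900114 expected counts each (median, 35920665), and the 4 libraries of DSA-treated HL-60 cells were shallower than both of their controls. Mitochondrial genes took 2.22 to 2.47% of the counts in HL-60 controls, 3.69 to 3.76% with low DSA and 4.64 to 5.46% with high DSA, and 1.47 to 1.68% in Molm-14 controls, 2.35 to 2.45% with low DSA and 2.72 to 4.10% with high DSA. The part of depth and of this share in the results below was not tested. Levels are given as CPM, counts relative to the library's total over the genes tested, after TMM scaling. TPM is used wherever levels of different genes are compared. Of the listed Molm-14 markers, HOXA9, HOXA10, MEIS1 and FLT3 were higher in every Molm-14 library. CD14, also listed for Molm-14, was higher in every HL-60 library (0.933 to 23.1 CPM, against 0.0596 to 0.181 CPM over the Molm-14 libraries). MPO, a listed promyelocyte marker, was higher in every HL-60 library. Of the other listed promyelocyte markers, PRTN3 was higher in HL-60 than in Molm-14 controls but overlapped between the lines with DSA (401 to 2204 CPM over the HL-60 libraries, against 519 to 603 CPM over the Molm-14 ones), whereas ELANE, AZU1 and CTSG were higher in every Molm-14 library. CD14 and ANPEP stayed below 1 CPM in Molm-14 cells. Genes listed as markers of T, B, erythroid, epithelial and stromal cells were 13 in number. Of these, 10 stayed below 1 CPM in every HL-60 library and 12 in every Molm-14 library. PECAM1, listed as stromal, was the highest of them in both lines. Their summed level was 50.3 to 50.4 CPM in HL-60 high dose libraries against 11.6 to 12.1 CPM in HL-60 controls. In Molm-14 cells it was 128 to 129 CPM in high dose libraries against 56.1 to 57.3 CPM in controls. PECAM1 made up most of this sum, with 8.53 to 41.9 CPM over the HL-60 libraries and 54.4 to 127 CPM over the Molm-14 ones. It was thus expressed in every library of both lines, so the sum and its rise are not read as a measure of other cells. MS4A1, HBB, HBA1 and KRT19 were at 0 in every library. Markers thus moved with DSA. At the high dose PECAM1 rose by 2.24 in HL-60 and by 1.20 in Molm-14 cells on the log2 scale, and in HL-60 cells CD14 rose by 4.45, to 21.9 CPM against 1.02 CPM in the controls, while MPO fell by 1.41 and PRTN3 by 2.32 (each with an adjusted p of 1.15e-13 or less by edgeR). The part of these shifts in the results below was not tested. In bulk RNA, fewer cells of a type and less RNA per cell cannot be told apart.

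MGMT gave the sharpest contrast between the lines, and its promoter is therefore shown beside that of ALKBH3, the other member whose level was severalfold higher in HL-60 cells. The runs below are the 250 bases before the RefSeq start of each gene on GRCh38.p14, at chr10:129466991-129467240 for MGMT and chr11:43880581-43880830 for ALKBH3, both on the plus strand, and capitals mark each CG.
MGMT: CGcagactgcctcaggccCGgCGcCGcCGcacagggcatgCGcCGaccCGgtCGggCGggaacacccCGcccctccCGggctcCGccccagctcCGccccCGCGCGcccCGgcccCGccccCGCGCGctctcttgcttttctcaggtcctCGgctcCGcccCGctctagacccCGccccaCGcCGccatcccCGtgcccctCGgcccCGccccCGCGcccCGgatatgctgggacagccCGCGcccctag
ALKBH3: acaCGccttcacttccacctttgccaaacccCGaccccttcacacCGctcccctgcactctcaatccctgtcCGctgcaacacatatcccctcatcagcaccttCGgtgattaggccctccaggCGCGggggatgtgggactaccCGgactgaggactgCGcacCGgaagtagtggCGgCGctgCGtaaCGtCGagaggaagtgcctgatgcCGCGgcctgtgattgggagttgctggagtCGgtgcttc
The MGMT window held 36 CG, and 80.4% of its bases were G or C. As many CG or more were found in 4.85% of 35116 promoters of the same length. The ALKBH3 window held 18 CG, and the median promoter held 11. The letters GGGCGG, searched on both strands, occurred 8 times in the MGMT window and 0 times in the ALKBH3 window. In all, 42.6% of the promoters held this motif at least once and 0.584% held it 8 or more times. Promoter entries were matched for 7 of the 8 members, and CG counts of the other windows lay between 16 and 27. Methylation was not measured in these samples.

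MGMT (ENSG00000170430) lies on chromosome 10, from 129467190 to 129770983 on the plus strand of hg38. In HL-60 cells it had 12.7 and 13.5 CPM in the control, 15.1 and 16.2 CPM with low DSA and 13.8 and 13.7 CPM with high DSA. In Molm-14 cells its expected counts were 1 and 0 in the controls, 1 and 0 with low DSA and 0 and 2 with high DSA, each below the floor of 3 counts, so MGMT was at or under detection in every Molm-14 library and no fold change is given within that line. Summed over libraries, 2808 counts were assigned to MGMT in HL-60 cells and 4 in Molm-14 cells. Scaled to the depth of the libraries, this is a ratio of 716 (95% exact interval, 279 to 2629, counting error only). Between the controls alone the counts were 1272 in HL-60 and 1 in Molm-14 cells, a ratio of 860 with an interval of 154 to 34005.

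Within HL-60 cells no change of MGMT with DSA passed the test. Both low dose libraries were above both controls, with a log2 fold change of 0.25 (SE 0.11), but this missed the threshold over all genes tested (adjusted p = 0.0587, edgeR's quasi-likelihood test with Benjamini-Hochberg adjustment). It passed under 6 of 14 alternatives, whose adjusted p ran from 0.0153 to 0.288. At the high dose the log2 fold change was 0.06 (SE 0.11, adjusted p = 0.615, edgeR).

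**Figure D1:**
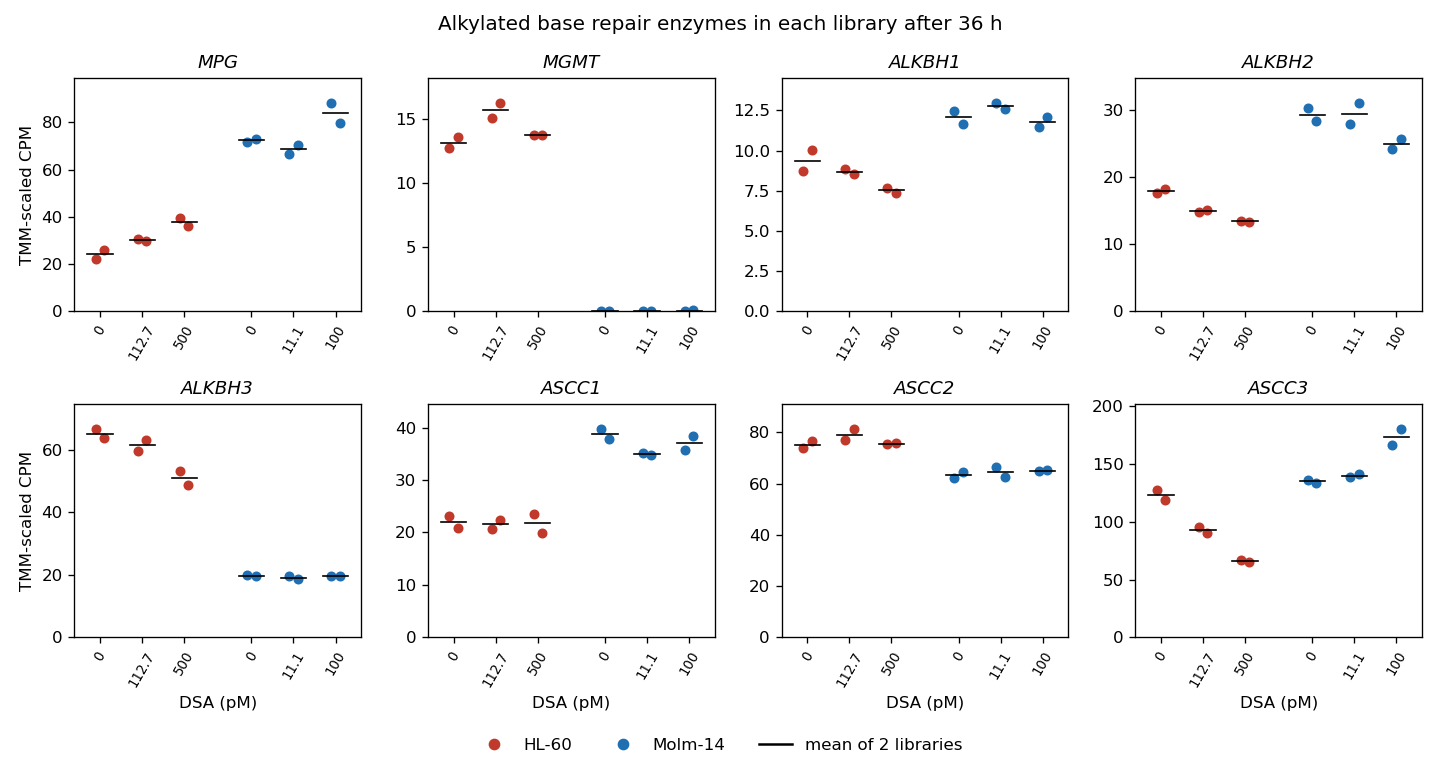
TMM-scaled CPM of each of the 8 genes in every library, by DSA dose in pM, with HL-60 cells in red and Molm-14 cells in blue and a bar at the mean of the 2 libraries. ASCC3 stepped down with dose in HL-60 cells, whereas both Molm-14 libraries at 100 pM were above the Molm-14 controls, and MGMT lay on the axis in Molm-14 cells.

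MPG (ENSG00000103152, chromosome 16, 77007 to 85851, plus strand), the glycosylase that removes methylated adenine, was the only member that edgeR called higher with DSA in HL-60 cells, apart from ASCC2 when libraries were scaled by total counts, and MGMT and ASCC2 at the low dose under alternatives given in the closing section. It had 22.0 and 26.1 CPM in the HL-60 controls, 30.6 and 29.7 CPM with low DSA and 39.7 and 35.9 CPM with high DSA. The groups did not overlap at any step. Against the control, the log2 fold change was 0.63 at the high dose (SE 0.07, adjusted p = 3.26e-07, edgeR) and 0.31 at the low dose (SE 0.08, adjusted p = 0.00253, edgeR), and high over low gave 0.32 (adjusted p = 0.00202).

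In Molm-14 cells MPG stood higher from the outset, with 71.9 and 73.1 CPM in the controls, 66.8 and 70.4 CPM with low DSA and 88.1 and 79.9 CPM with high DSA. Only the high dose libraries rose above the controls, with a log2 fold change of 0.21 (SE 0.06, adjusted p = 0.00831, edgeR). The value was 0.20 without Molm-14 control replicate 1 and 0.14 without Molm-14 high DSA replicate 1, and the call was lost in both. These fits leave a group without a replicate and so have less power. Over all 14 alternatives the adjusted p ran from 0.000277 to 0.452. The increase in HL-60 exceeded that in Molm-14 cells at the high doses by 0.42 in log2 units (SE 0.10, adjusted p = 0.00113, edgeR), although these doses differ between the lines. At near-equal doses, 112.7 pM in HL-60 and 100 pM in Molm-14 cells, the difference was 0.10 (SE 0.10, adjusted p = 0.489, edgeR).

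The 3' part of MPG overlaps that of NPRL3, a gene on the opposite strand that encodes a subunit of an mTORC1 inhibitor, between 84271 and 85851. No source used here gives the strand setting of the counting, so reads in this stretch cannot be assigned with certainty. NPRL3 itself fell with high DSA in Molm-14 cells by 0.24 on the log2 scale (adjusted p = 0.00103, edgeR), opposite to MPG. In HL-60 cells its fall was 0.12 (adjusted p = 0.0497, edgeR), close to the threshold. This is smaller than the 0.18 at which the median of all genes stood when libraries were scaled by total counts. No direction is therefore read from the HL-60 value. When the counts of both genes were summed, the pair rose by 0.18 with high DSA in HL-60 cells (adjusted p = 0.00406), whereas 0.05 in Molm-14 cells (adjusted p = 0.452) and 0.07 in HL-60 cells at the low dose (adjusted p = 0.273) did not pass, and the difference between the lines became 0.13 (adjusted p = 0.122). The change of the pair for high over low was 0.11 in HL-60 (adjusted p = 0.0972) and 0.11 in Molm-14 cells (adjusted p = 0.0759, edgeR for both). Neither passed the threshold. All counts of NPRL3, also those outside the shared stretch, are part of these sums. The sums therefore cannot tell whether MPG alone changed. In the HL-60 controls MPG had 24.1 ± 2.88 CPM, against 72.5 ± 0.857 CPM in the Molm-14 controls (SD, n = 2 each), and NPRL3 had 47.9 ± 0.420 against 48.1 ± 0.407 CPM.

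ALKBH2 (ENSG00000189046, chromosome 12, 109088188 to 109093631, minus strand), the dioxygenase that acts on double-stranded DNA, was lower at the high dose in both lines. HL-60 libraries had 17.7 and 18.3 CPM without DSA, 14.8 and 15.1 CPM with low DSA and 13.4 and 13.4 CPM with high DSA. Molm-14 libraries had 30.3 and 28.3 CPM without DSA, 27.9 and 31.02 CPM with low DSA and 24.1 and 25.6 CPM with high DSA. Both high dose groups lay wholly below their controls, and of the low dose groups only that of HL-60 cells did.

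The log2 fold change of ALKBH2 at the high dose was -0.43 in HL-60 (SE 0.07, adjusted p = 4.29e-05), against -0.24 in Molm-14 cells (SE 0.06, adjusted p = 0.00528, edgeR for both), and the difference between the lines was -0.19 (SE 0.10, adjusted p = 0.113). In Molm-14 cells the call was lost without control replicate 1 (-0.19, adjusted p = 0.0789) and without high DSA replicate 1 (-0.19, adjusted p = 0.0710), with adjusted p from 0.000866 to 0.0789 over 14 alternatives. At the low dose ALKBH2 fell by 0.27 on the log2 scale in HL-60 cells (adjusted p = 0.00558, edgeR), a call that DESeq2 did not make (adjusted p = 0.0841, the highest of 14 alternatives, the lowest being 0.00214).

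ALKBH3 and MPG showed the largest differences between the untreated lines after MGMT, in sizes that overlapped when a library was left out. ALKBH3 (ENSG00000166199, chromosome 11, 43880811 to 43920274, plus strand), the dioxygenase of single-stranded DNA and RNA, fell in HL-60 cells with high DSA. It had 66.5 and 63.8 CPM in the HL-60 controls, 59.5 and 63.2 CPM with low DSA and 53.0 and 48.6 CPM with high DSA. In Molm-14 cells it had 19.8 and 19.6 CPM without DSA, 19.4 and 18.7 CPM with low DSA and 19.6 and 19.5 CPM with high DSA. Every HL-60 library thus had more ALKBH3 than every Molm-14 library, the high dose ones included.

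At the high dose the log2 fold change of ALKBH3 was -0.36 in HL-60 (SE 0.05, adjusted p = 2.82e-06), against -0.01 in Molm-14 cells (SE 0.06, adjusted p = 0.944, edgeR for both). The difference between these changes was -0.35 (SE 0.08, adjusted p = 0.00117, edgeR) and it passed in all 18 alternatives. In HL-60 cells most of the decrease came between the doses, with -0.28 for high over low (adjusted p = 0.0002) and -0.08 for low over control (adjusted p = 0.181). At near-equal doses the lines differed by -0.07 (SE 0.08, adjusted p = 0.531). An overlapping pseudogene on the same strand, SEC14L1P1, held 78.8 counts per library on average.

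ALKBH1 (ENSG00000100601, chromosome 14, 77672404 to 77708023, minus strand) had the lowest TPM of the members in HL-60 cells. Its level there was 8.74 and 10.0 CPM in the controls, 8.82 and 8.57 CPM with low DSA and 7.68 and 7.37 CPM with high DSA. It fell at the high dose by 0.33 in log2 units (SE 0.10, adjusted p = 0.00435, edgeR). This was the weakest call of that comparison: it was lost with DESeq2 (adjusted p = 0.0835), with scaling by total counts (adjusted p = 0.171) and without HL-60 control replicate 2 (adjusted p = 0.0895), in a range of 0.00152 to 0.171 over 14 alternatives. In Molm-14 cells ALKBH1 stayed between 11.5 and 12.9 CPM in all libraries, with a log2 fold change of -0.03 at the high dose (SE 0.09, adjusted p = 0.803).

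ASCC3 (ENSG00000112249, chromosome 6, 100508194 to 100881372, minus strand), the helicase that works with ALKBH3, moved in opposite directions in the lines. In HL-60 cells it had 128 and 119 CPM in the controls, 95.8 and 90.1 CPM with low DSA and 67.1 and 65.2 CPM with high DSA. In Molm-14 cells it had 137 and 134 CPM in the controls, 139 and 141 CPM with low DSA and 166 and 180.1 CPM with high DSA. No group overlapped another within a line, and the untreated lines stood much closer to each other than the treated ones.

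The fall of ASCC3 in HL-60 cells was 0.90 on the log2 scale at the high dose (SE 0.05, adjusted p = 6.28e-12), to a mean of 66.1 ± 1.32 CPM, against 123 ± 6.58 CPM in the controls (SD, n = 2 each). At the low dose it fell by 0.41 (SE 0.05, adjusted p = 1.05e-06), and high over low gave -0.49 (adjusted p = 2.59e-07, edgeR for all 3). The rise in Molm-14 cells was 0.36 at the high dose (SE 0.05, adjusted p = 3.03e-06), with 0.05 at the low dose (SE 0.05, adjusted p = 0.745). The difference between the lines, HL-60 minus Molm-14, was thus -1.25 for the change with high DSA (SE 0.07, adjusted p = 1.85e-11, edgeR), and at near-equal doses it was -0.76 (SE 0.07, adjusted p = 5.39e-08). These differences and the high dose change in each line passed under every alternative run. No protein-coding gene overlaps ASCC3 in the annotation.

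ASCC2 (ENSG00000100325, chromosome 22, 29788609 to 29838304, minus strand) and ASCC1 (ENSG00000138303, chromosome 10, 72096032 to 72217134, minus strand) passed no test at the high doses, except ASCC2 in HL-60 cells when libraries were scaled by total counts (0.19, adjusted p = 0.000935, in a range of 0.000935 to 0.968 over 14 alternatives). ASCC2 had 75.5 ± 0.264 CPM in HL-60 high dose libraries and 75.3 ± 2.14 CPM in HL-60 controls, and 65.1 ± 0.429 CPM in Molm-14 high dose libraries and 63.4 ± 1.59 CPM in Molm-14 controls (SD, n = 2 each). Its log2 fold change was 0.00 in HL-60 (SE 0.04, adjusted p = 0.957), against 0.04 in Molm-14 cells (SE 0.05, adjusted p = 0.530, edgeR for both). ASCC1 had a log2 fold change of -0.02 (SE 0.08, adjusted p = 0.792) and -0.07 (SE 0.07, adjusted p = 0.461) in the same comparisons.

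ASCC1 overlaps ANAPC16 on the opposite strand between 72216000 and 72217134. In the sum of the pair, HL-60 cells changed by -0.12 at the low dose (adjusted p = 0.0143) and by 0.11 for high over low (adjusted p = 0.0224), whereas ASCC1 alone gave -0.01 in both, so no direction is given for ASCC1 in these comparisons. The ratio of ASCC3 to ASCC2 TPM within a library was 0.321 and 0.296 in HL-60 high dose libraries against 0.593 and 0.555 in HL-60 controls, and 0.863 and 0.934 in Molm-14 high dose libraries against 0.720 and 0.753 in Molm-14 controls. The messages of the helicase and of its ubiquitin-binding subunit thus changed unequally in both lines, in opposite directions.

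**Figure D2:**
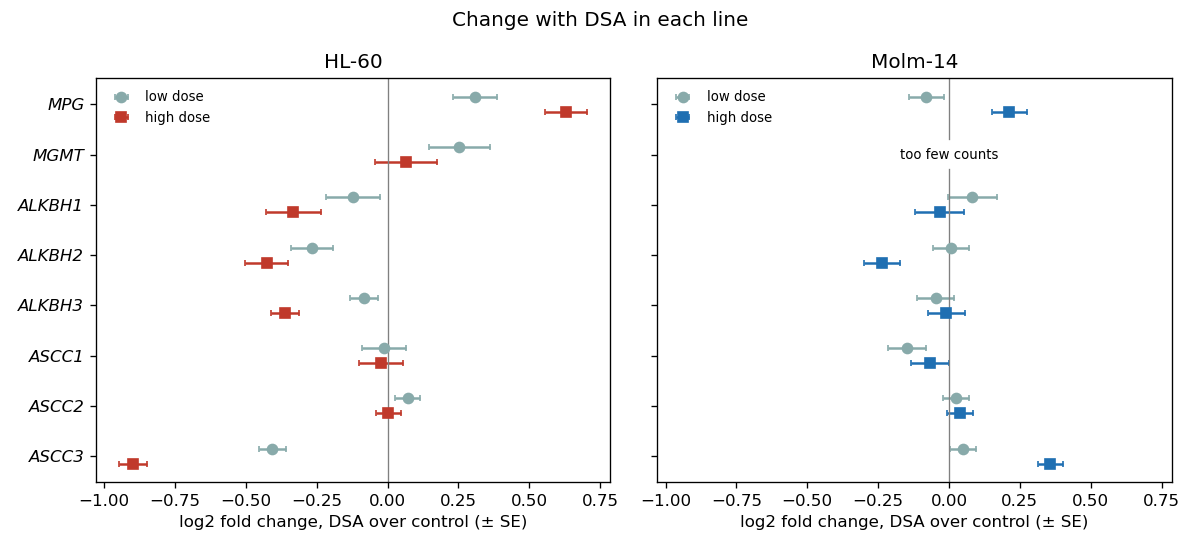
Log2 fold change of each gene with DSA over control in HL-60 cells (left) and Molm-14 cells (right), with the low dose as circles, the high dose as squares and bars of 1 SE. The ASCC3 squares lie at -0.90 in HL-60 and 0.36 in Molm-14 cells, the MPG squares at 0.63 and 0.21, and MGMT has no value in Molm-14 cells.

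Counted over the members, HL-60 cells at the high dose had 1 of 8 higher (MPG), where 35.8% of all genes tested were higher, and 4 lower (ALKBH1, ALKBH2, ALKBH3 and ASCC3), where 37.8% were lower. At the low dose 1 was higher (MPG, 24.2% of all genes) and 2 were lower (ALKBH2 and ASCC3, 27.4%). Between the doses 1 was higher at the high dose (MPG, 25.9%) and 2 were lower (ALKBH3 and ASCC3, 26.8%). With so large a share of all genes called in both directions and only 8 members, nothing is read from these counts about the members as a group. The median log2 fold change of the 8 at the high dose was -0.18, against 0.00 over all genes.

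In Molm-14 cells at the high dose 2 of the 7 members that could be measured were higher (MPG and ASCC3), where 22.9% of all genes tested were higher, and 1 was lower (ALKBH2, 21.9%). At the low dose 0 were higher (0.969% of all genes) and 0 were lower (0.238%) with edgeR, and DESeq2 and limma-voom called 0 as well. The count at an unadjusted p under 0.05 was 1, ASCC1 with -0.15 (adjusted p = 0.404, edgeR). For high over low the calls were again MPG and ASCC3 (19.6%) and ALKBH2 (18.5%), the last of which was lost without Molm-14 low DSA replicate 2 (adjusted p = 0.104) and without Molm-14 high DSA replicate 1 (adjusted p = 0.0718), in a range of 0.00105 to 0.104. The high over low comparison shares its high dose libraries with the high over control comparison, so these calls are not separate evidence.

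The change with DSA differed between the lines in 3 of the 7 members at the high doses, with MPG higher in HL-60 cells (25.1% of all genes) and ALKBH3 and ASCC3 lower (30.3%). At near-equal doses 0 were higher (16.7%), also at an unadjusted p under 0.05 with edgeR and with DESeq2 and limma-voom, and only ASCC3 was lower (21.0%). For ALKBH1 the high dose difference was -0.30 (SE 0.13, adjusted p = 0.0579, edgeR), which missed the threshold but passed without HL-60 control replicate 1 (-0.39, adjusted p = 0.0214, in a range of 0.0214 to 0.354 over 18 alternatives).

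Without DSA the lines had different sets of these enzymes. Of the 7 members measured in both, 2 were higher in HL-60 controls (ALKBH3 and ASCC2), where 43.9% of all genes were higher, and 5 were lower (MPG, ALKBH1, ALKBH2, ASCC1 and ASCC3), where 40.1% were lower. The log2 fold changes of HL-60 over Molm-14 controls were 1.72 for ALKBH3 (SE 0.06), -1.58 for MPG (SE 0.07), -0.83 for ASCC1 (SE 0.07), -0.70 for ALKBH2 (SE 0.06), -0.35 for ALKBH1 (SE 0.09) and 0.25 for ASCC2 (SE 0.04), each with an adjusted p of 0.000898 or less by edgeR. Summed with NPRL3, MPG gave -0.74. The difference in ASCC3, -0.14 (SE 0.05, adjusted p = 0.00947, edgeR), was lost without Molm-14 control replicate 1 (adjusted p = 0.0626) and without HL-60 control replicate 2 (adjusted p = 0.165), in a range of 0.000236 to 0.165.

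**Figure D3:**
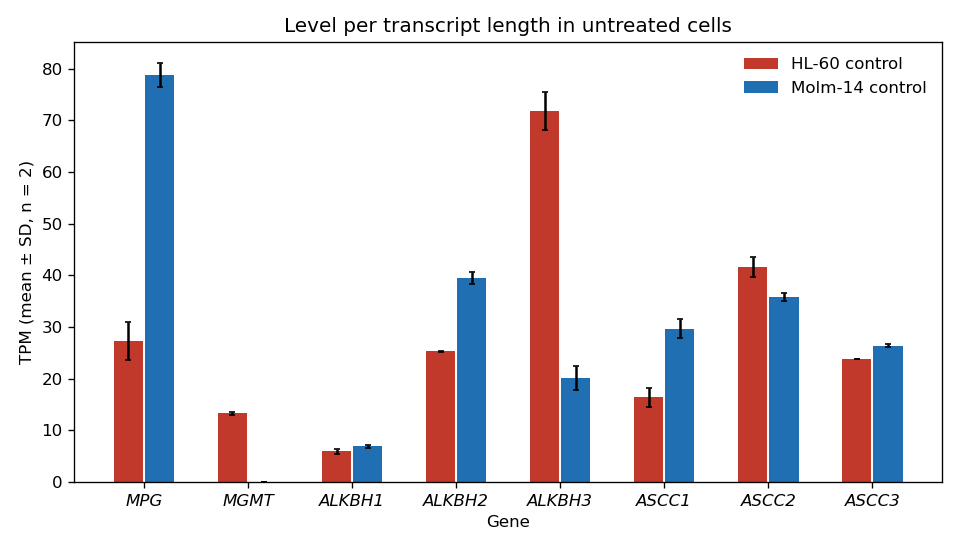
Mean TPM of each gene in HL-60 controls (red) and Molm-14 controls (blue), with bars of 1 SD over 2 libraries. ALKBH3 led in HL-60 cells at 71.8 TPM and MPG led in Molm-14 cells at 78.8 TPM, and MGMT had 13.3 TPM in HL-60 and 0.005 TPM in Molm-14 cells.

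Per transcript length, the order of the members was different in each line. In HL-60 controls ALKBH3 led with 71.8 ± 3.61 TPM, followed by ASCC2 with 41.6 ± 1.93, MPG with 27.3 ± 3.62 and ALKBH2 with 25.3 ± 0.106 TPM (SD, n = 2), and the libraries of MPG and ALKBH2 overlapped. ASCC3, ASCC1, MGMT and ALKBH1 followed without overlap, at 23.9, 16.4, 13.3 and 5.94 TPM. In Molm-14 controls MPG led with 78.8 ± 2.26 TPM, ahead of ALKBH2 with 39.5 ± 1.16 and ASCC2 with 35.9 ± 0.764 TPM, and ASCC1, ASCC3, ALKBH3 and ALKBH1 followed at 29.7, 26.4, 20.1 and 6.92 TPM, none overlapping its neighbour.

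At the high dose neighbours in the order changed places in both lines. In HL-60 cells MPG reached 44.8 ± 2.29 TPM and could not be told from ASCC2 at 45.4 ± 1.79 TPM, and ASCC3 dropped to 14.0 ± 0.255 TPM, next to MGMT at 14.3 TPM. In Molm-14 cells ASCC2 passed ALKBH2, at 36.0 ± 1.65 against 33.0 ± 1.75 TPM, and ASCC3 passed ASCC1, at 32.3 ± 0.332 TPM, and overlapped ALKBH2. The ratio of MPG to ALKBH3 TPM was 0.736 and 0.789 in HL-60 high dose libraries against 0.333 and 0.431 in HL-60 controls, and 4.87 and 4.45 in Molm-14 high dose libraries against 4.17 and 3.70 in Molm-14 controls. On the TPM scale the sum of all 8 members moved little. HL-60 high dose libraries had 225 and 215 TPM, against 225 and 226 TPM in HL-60 controls. Molm-14 high dose libraries had 241 and 247 TPM, against 237 and 238 TPM in Molm-14 controls. TMM factors scale the libraries differently, so the change of a TPM level or sum with DSA depends on the scale.

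The 6 other AlkB homologues act mostly on RNA or protein. With high DSA, HL-60 cells had 2 of them higher and 4 lower, where 35.8% of all genes were higher and 37.8% lower, and Molm-14 cells had 1 higher and 2 lower, where these shares were 22.9% and 21.9%. Some Molm-14 calls of this list were lost when a library was left out, which leaves its group without a replicate and lowers the power. ALKBH6 had the largest increase among them, 1.29 in HL-60 (SE 0.10, adjusted p = 8.24e-10), against 0.39 in Molm-14 cells (SE 0.10, adjusted p = 0.00371, edgeR for both). The Molm-14 call was lost without control replicate 1 (0.24, adjusted p = 0.108). ALKBH8, which modifies the wobble uridine of tRNA, fell by 0.72 in HL-60 and by 0.24 in Molm-14 cells on the log2 scale, where the Molm-14 call was lost without control replicate 2 (adjusted p = 0.0813) and without high DSA replicate 1 (adjusted p = 0.0919). FTO, a demethylase of RNA, fell by 0.62 in HL-60 cells, and had 28.4 CPM in Molm-14 high dose libraries against 30.8 CPM in controls. ALKBH5, which removes methyl groups from adenosine in mRNA, fell by 0.19 in Molm-14 cells. This call was lost without control replicate 1, control replicate 2 or high DSA replicate 2. In HL-60 cells ALKBH5 had 60.8 CPM at the high dose against 78.2 CPM in the controls.

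Among 6 partners of the ASCC complex and deubiquitinases of the ALKBH enzymes, HL-60 cells had 0 higher and 3 lower with high DSA (35.8 and 37.8% of all genes), and Molm-14 cells had 1 higher and 2 lower (22.9 and 21.9%). The count of 0 higher in HL-60 cells held at an unadjusted p under 0.05 with edgeR and with DESeq2 and limma-voom, whereas 1 was higher with scaling by total counts. OTUD4, which with USP7 and USP9X stabilizes ALKBH2 and ALKBH3 protein, fell by 0.95 on the log2 scale in HL-60 cells (SE 0.04, adjusted p = 3.51e-13, edgeR). It had 96.6 CPM in Molm-14 high dose libraries against 91.8 CPM in Molm-14 controls. USP7 fell by 0.46 in HL-60 and by 0.19 in Molm-14 cells, and USP9X rose by 0.23 in Molm-14 cells, a call lost without Molm-14 control replicate 1 (0.17, adjusted p = 0.0685). ZNF598, the ubiquitin ligase that marks collided ribosomes for the ASCC complex, fell by 0.28 in HL-60 and by 0.31 in Molm-14 cells.

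The steps that follow MPG were counted in 14 base excision repair genes. With high DSA, HL-60 cells had 5 higher and 7 lower, where 35.8 and 37.8% of all genes were called (median, -0.02, against 0.00 over all genes), and Molm-14 cells had 3 higher and 9 lower, where 22.9 and 21.9% were called (median, -0.20, against 0.00). The number lower in HL-60 cells was 3 with DESeq2, RLE factors, total counts and a minimum mean of 50 counts, and the number higher was 8 with total counts. In Molm-14 cells the number higher was 1 without high DSA replicate 2. HMGB1, a chromatin protein and cofactor of base excision repair, fell by 0.81 in HL-60 and by 0.44 in Molm-14 cells. APEX1, the endonuclease that cuts the site MPG leaves, fell by 0.59, and the ligase LIG3 by 0.89 in HL-60 cells. LIG3 had 59.7 CPM in Molm-14 high dose libraries against 74.7 CPM in controls, and APEX1 had 423 against 462 CPM. The flap endonuclease FEN1 fell by 0.37 and the ligase LIG1 by 0.28 in Molm-14 cells. In HL-60 high dose libraries FEN1 had 224 CPM against 215 CPM in controls, and LIG1 had 112 against 100 CPM. The genes named so far from this list have the smallest p, and all are falls. XRCC1 went the other way, with 49.5 CPM in HL-60 high dose libraries against 34.1 CPM in controls.

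Of 10 other DNA glycosylases, HL-60 cells had 2 higher and 6 lower with high DSA (35.8 and 37.8% of all genes), and Molm-14 cells had 1 higher and 3 lower (22.9 and 21.9%). The number lower in HL-60 cells was 4 without control replicate 1 and 3 with total counts, and the number higher in Molm-14 cells was 0 with DESeq2 and with a minimum mean of 50 counts. UNG, which removes uracil, fell by 0.41 in HL-60 and by 0.62 in Molm-14 cells on the log2 scale. NTHL1, which removes oxidized pyrimidines, fell by 0.65 in HL-60 and by 0.58 in Molm-14 cells. TDG fell by 0.54 in HL-60 cells and NEIL3 by 0.60 in Molm-14 cells (adjusted p = 2.77e-10 and 4.75e-08, edgeR). In Molm-14 cells TDG had 134.7 CPM at the high dose against 135.3 CPM in the controls. NEIL3 had 43.6 CPM in HL-60 high dose libraries against 50.4 CPM in their controls.

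**Figure D4:**
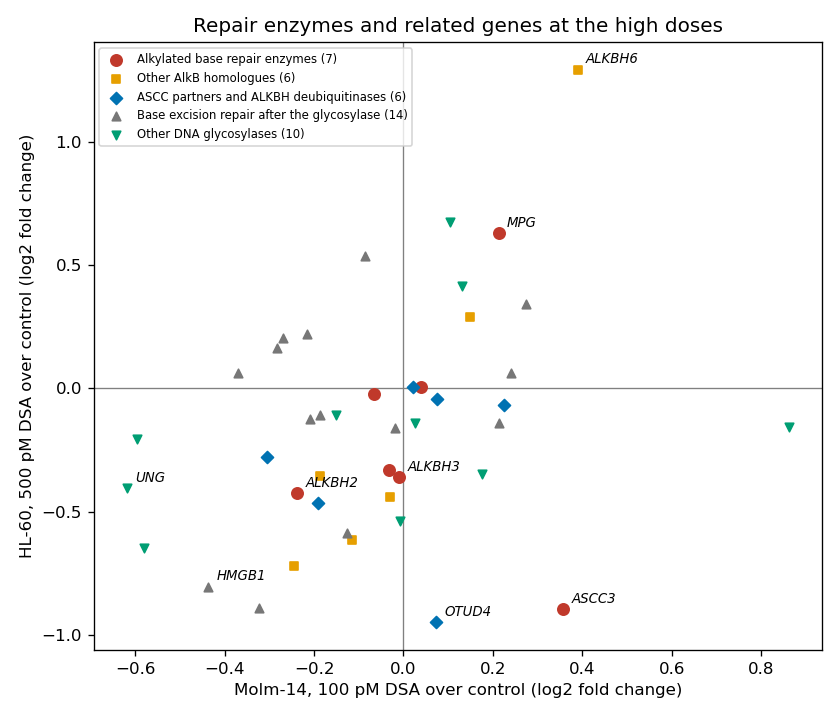
Log2 fold change at the high dose in Molm-14 cells (100 pM, horizontal) and HL-60 cells (500 pM, vertical) for 7 of the members and 4 lists of related genes, 1 point per gene. ASCC3 lies alone among the members in the lower right, at -0.90 in HL-60 and 0.36 in Molm-14 cells, and MGMT is left out because Molm-14 cells had too few counts.

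Across the 12 libraries, the gene whose centred log2 CPM was nearest to ASCC3 was TRIAP1, with a root mean square difference of 0.04, followed by COMMD8 with 0.09. TRIAP1 had 37.2 ± 0.461 CPM in HL-60 high dose libraries against 68.2 ± 0.616 CPM in HL-60 controls, and 95.6 ± 1.43 CPM in Molm-14 high dose libraries against 76.6 ± 1.48 CPM in Molm-14 controls (SD, n = 2 each). Nearest to MPG were TRPV2 (0.06) and CYBA (0.07), to ALKBH1 COQ5 and UTP14A (0.06 each), to ALKBH2 CEBPG (0.05) and ELOC (0.06), and to ALKBH3 AGK (0.06) and ASB6 (0.06). For ASCC1 they were COPA and PHF23 (0.08 each) and for ASCC2 CCDC51 and PQBP1 (0.04 each). MGMT was nearest to GSTM3 (0.25) and ZNF606 (0.31), whose counts in Molm-14 cells were also few. The 12 libraries form 6 groups of a pair of lines, so this likeness describes mainly the means of those groups.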

How the data were processed

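Per the labels and the methods, the authors trimmed reads with Trim Galore 0.60, aligned them to hg38 with STAR 2.7 and ran RSEM 1.31 with GENCODE release 31. They deposited expected counts, TPM and effective lengths for 60754 genes in each of 12 libraries, unfiltered. Symbols and coordinates came from GENCODE release 44, in which 60261 identifiers matched, and 45 copies of pseudoautosomal genes were left out. Expected counts were rounded, and edgeR 4.0.16 (R 4.3.3) was run on protein-coding genes of level 1 or 2 that passed filterByExpr (13422 genes), with TMM factors, 1 mean per group and glmQLFTest. Benjamini-Hochberg adjusted p-values over these genes were called at a threshold of 0.05. The SE is the log2 fold change divided by the square root of F. Library totals for CPM and for scaling by total counts are over the genes tested, and CPM is scaled by TMM. The deposited TPM values were used to compare genes, and their order, ratios and sum at the high dose are given beside those of the controls.

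The members, lists and tests were chosen with earlier results of these data known. Named genes are the members, up to 3 genes per list with the smallest p at each high dose, the 2 genes nearest to each member in pattern, genes that overlap a member, CDKN1A, MDM2 and the marker genes. The 13 genes listed as markers of other cells were CD3D, CD3E, CD8A, MS4A1, CD79A, HBB, HBA1, EPCAM, KRT19, CDH1, COL1A1, COL1A2 and PECAM1. CDKN1A had 20.0 ± 0.544 CPM in HL-60 high dose libraries against 0.468 ± 0.134 in controls and 1010.1 ± 3.70 in Molm-14 high dose libraries against 321 ± 15.7 in controls, and MDM2 had 53.9 ± 7.85 against 71.7 ± 4.74 and 326 ± 5.52 against 133 ± 2.99 CPM (SD, n = 2 each). Alternatives were DESeq2 1.42.0, limma-voom (limma 3.58.1), RLE factors, total counts alone, no filter, means of 50 counts or more, all gene types, only the samples compared, the replicate number as a block and leaving out each library. Leaving out a library leaves its group without a replicate, which lowers the power, so a call lost there need not depend on that library. Summing the counts of overlapping genes was added after seeing the data. Replicates of a group differed by more than sampling noise (chi-square per degree of freedom, 2.21 to 3.73). Deviations of same-numbered samples correlated between -0.0697 and 0.0748 over 13422 genes, so no strong shared shift was seen. With 2 libraries per group this cannot tell whether same-numbered samples were cultured or processed together. The samples were not paired in the main fit. The edgeR step was tested on simulated counts. Some genes are not reported here.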

Additional observations from a re-analysis of the deposited data

Results flagged for a closer look

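The change with DSA differed between the lines, by a test of the difference itself, for 3 of the 7 members measured in both, 1 higher and 2 lower in HL-60 cells, where 25.1% of all genes were higher and 30.3% lower, so nothing is read from this number about the members as a group. At the high doses the difference, HL-60 minus Molm-14, was 0.42 for MPG (SE 0.10, adjusted p = 0.00113, edgeR), -0.35 for ALKBH3 (SE 0.08, adjusted p = 0.00117) and -1.25 for ASCC3 (SE 0.07, adjusted p = 1.85e-11). ASCC3 also differed at near-equal doses, by -0.76 (SE 0.07, adjusted p = 5.39e-08), and it was the member for which both libraries at the high dose lay below both controls in HL-60 cells and above both controls in Molm-14 cells. The lines also differed in medium, serum and, for the high doses, in dose, and the part of these in the differences was not tested. With 2 libraries in a group, samples far from their group were not looked for.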

How the results depend on the processing

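With 2 libraries per group and gene-level counts, small changes could not be resolved. The SE given with each value is not a limit of detection, since larger changes were also not called. An example is MGMT in HL-60 cells at the low dose, with 0.25 (SE 0.11). The counting strand of overlapping genes is unknown. The numbers of members called kept their size under most alternatives, with the exceptions that follow. In HL-60 cells at the low dose the number higher was 2 with limma-voom, with no filter, with a minimum mean of 50 counts and with only the samples compared, 3 with RLE factors and with total counts, and 0 after summing overlapping genes, and the number lower was 1 with DESeq2 and 3 after summing. In HL-60 cells at the high dose the number lower was 3 with DESeq2 and with total counts, and with total counts the number higher was 2. The added one, ASCC2, then stood at 0.19, while the median of all genes stood at 0.18, which is the shift of this scaling. After summing overlapping genes, the number higher was 1 in Molm-14 cells at the high dose and 1 for Molm-14 high over low. It was 0 for the difference between the lines at the high doses. For HL-60 high over low the sum of MPG and NPRL3 was not called, while that of ASCC1 and ANAPC16 gave 0.11 and was called. The number higher thus stayed at 1, although ASCC1 alone gave -0.01. Counts after summing hold pairs of genes, so they cannot tell whether a member alone changed. Leaving out 1 library at a time gave 1 to 2 higher and 0 to 1 lower in Molm-14 cells at the high dose, 0 to 1 lower for Molm-14 high over low, 3 to 4 lower in HL-60 cells at the high dose, 4 to 5 lower between the untreated lines and 2 to 3 lower for the difference between the lines at the high doses. The replicate number as a block left all 18 counts of members as they were, for example 4 lower and 1 higher in HL-60 cells at the high dose. In 53 cases a value past the threshold in neither setting changed sign, the largest of them 0.16 in size. TPM levels rebuilt as TMM-scaled CPM per kb moved by more than 1 SD in 38 of 48 group means. The rebuilt values were not rescaled to the sum of TPM, so within a library they differ from TPM by a factor common to all genes. This comparison therefore does not test the levels or the order of the members.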
